A study of Mus musculus with 8 samples.

Results

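The genes examined were 9 that act on membranes by pinching or fusing them. They comprised the classical dynamins Dnm1, Dnm2 and Dnm3, the mitochondrial fission dynamin Dnm1l with the adaptors Mff and Fis1, and the mitochondrial fusion GTPases Opa1, Mfn1 and Mfn2. They were chosen by name and function, with earlier results of these data known. Each symbol matched a single identifier among the 22880 gene identifiers counted. All 9 were among the 14001 genes that passed the filter on low counts. The tissue was the soleus, a calf muscle that holds both slow and fast fibres. It was dissected from male C57BL/6 mice (the J substrain in the study's methods) at 2 months of age. Its RNA was sequenced to learn how a point mutation of Dnm2 changes transcript levels in muscle. The controls were 4 Dnm2 +/+ mice and the mutants were 4 Dnm2 +/K562E mice, called Dnm2 wt/K562E here, with 1 library from each mouse. The description of the library of mutant 1 carries another residue number than its title and genotype label, which were followed, and of the calls on the 9 genes only that of Mff was lost without it. The mutant allele was introduced into the endogenous Dnm2 gene, so every cell type of the muscle carried it beside a wild-type allele.

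Dynamins are large GTPases that assemble around the neck of a membrane bud and sever it. Dnm2 does so in nearly all cells, whereas Dnm1 is best known from neurons and Dnm3 from brain and testis. Mitochondria are divided by Dnm1l, also called Drp1, which is recruited from the cytosol by outer membrane proteins such as Mff and Fis1. They are joined by the mitofusins Mfn1 and Mfn2 at the outer membrane and by Opa1 at the inner membrane. Slow muscle fibres are rich in mitochondria, and mutations of DNM2 and MFN2 in patients cause Charcot-Marie-Tooth neuropathy.

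The mutation changes a lysine of the pleckstrin homology domain, through which dynamins bind phosphoinositides. In the GENCODE M21 transcripts (GRCm38), the codon of this lysine lay on the plus strand at chr9:21499270-21499272, in exon 16 of 21 of Dnm2. The reference sequence around it is shown with its counterparts in Dnm1 and Dnm3 because these transcripts are the nearest relatives of the mutated gene and could share its reads. The lysine codon is in capitals, with 12 bases on each side.
Dnm2: gagaaagaaaagAAGtacatgctgcca
Dnm1: gagaaagagaagAAGtacatgctgtct
Dnm3: gagaaagaaaagAAAtatatgcttccc
The Dnm1 window matched that of Dnm2 at 24 of 27 bases (codon at chr2:32316993-32316995, minus strand). The Dnm3 window matched at 23 of 27 (chr1:162134552-162134554, minus strand, codon 558 of that protein). All 3 genes keep a lysine at this place. Over whole transcripts the classical dynamins were easily told apart, since 0.144% of the 31-base stretches of Dnm1, 3.48% of those of Dnm2 and 1.52% of those of Dnm3 occurred in another gene.

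The 3 classical dynamins also share a feature outside their coding sequence. Each holds, on the opposite strand and within an intron, a gene of the miR-199 family, and RefSeq (GRCm38.p6) gives the same mature 3p sequence for all 3. The mature sequences are shown with the seed, bases 2 to 8, in capitals.
miR-199a-3p and miR-199b-3p: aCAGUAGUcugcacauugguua
miR-199a-5p: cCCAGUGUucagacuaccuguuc
The hosts are Dnm1 for Mir199b, Dnm2 for Mir199a-1 and Dnm3 for Mir199a-2. These miRNA genes overlapped 0 bases of the dynamins' exons, and the miRNAs were not analysed here. Dnm3os, antisense to Dnm3 and with no exon overlap, was not analysed here either.

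The libraries held 33407430 to 48832814 counts, and the 9 genes had between 223 and 24417 counts in each. Values are given as normalized CPM, the counts relative to the size of the library after scaling with TMM factors. Controls had factors of 0.91 to 0.96 and mutants of 1.04 to 1.103. Checked against its label, the tissue held all 8 muscle fibre markers, such as Acta1 and Myh7, in abundance in every library. Of these 8 markers 7 were lower in mutants and 0 higher, with summed levels of 54320 to 62410 CPM in controls and 35510 to 40380 CPM in mutants. The 7 macrophage, 6 fibroblast and 5 tendon markers were all higher in mutants, with summed levels of 72.81 to 135.5 CPM in controls and 179.3 to 295.6 CPM in mutants for macrophages, 2002 to 2936 and 4755 to 6196 CPM for fibroblasts, and 293.4 to 629.8 and 883.6 to 1209 CPM for tendon. All 5 endothelial markers were lower, at 862.1 to 900.2 CPM in controls and 616.2 to 704.8 CPM in mutants. Of 7 Schwann cell markers 1 was lower (Mbp) and 0 higher, at 248.6 to 285.9 CPM in controls and 242.1 to 291.0 CPM in mutants. The 5 adipocyte markers were not called, with sums of 1931 to 2860 CPM in controls and 1707 to 2364 CPM in mutants. Of 7 genes of myoblasts and regenerating fibres 2 were higher (Myh3 and Myog) and 2 lower (Pax7 and Myf5), with sums of 65.78 to 79.75 CPM in controls and 353.4 to 514.1 CPM in mutants. The part of these shifts in the results that follow was not tested. In whole muscle, fewer cells of a type and less of an RNA in each cell cannot be told apart.

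Of the 9 genes, 5 changed at an adjusted p under 0.05, 1 upward (Dnm1) and 4 downward (Mfn1, Mfn2, Opa1 and Mff). Across all 14001 genes tested the same rule called 43.8%, with 22.2% higher and 21.7% lower, so the number of calls among these genes was near that of the whole transcriptome. With a log2 fold change of at least 0.58 required as well, Dnm1 remained higher and Mfn1 lower, against 12.9% and 7.85% of all genes. The median log2 fold change of the 9 genes was -0.10, beside 0.0074 for all genes tested. In 6 of the 9 genes the genotypes did not overlap, against 41.2% of all genes, and Dnm2 was the member of these 6 that did not pass the test.

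**Figure D1:**
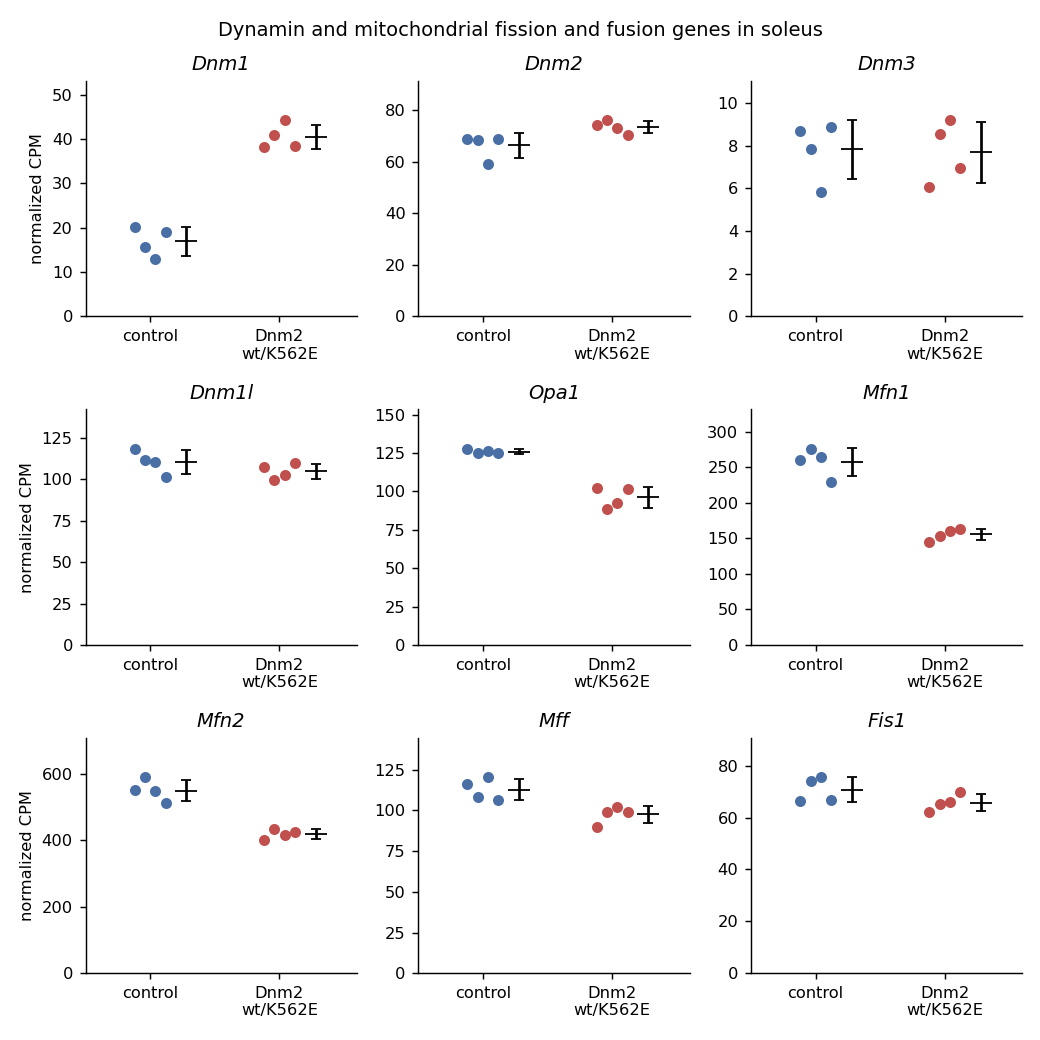
Normalized CPM of the 9 genes in soleus of 4 control mice (blue) and 4 Dnm2 wt/K562E mice (red), each point 1 mouse, with the mean and SD in black beside them and each vertical axis starting at 0. The genotypes are apart for Dnm1 and Dnm2, which were higher in mutants (Dnm2 without passing the test), and for Opa1, Mfn1, Mfn2 and Mff, which were lower.

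Dnm1 was the member of the group that rose. It encodes the dynamin of synaptic vesicle recycling and lies at chr2:32308471-32353338 (GRCm38, minus strand). Its level in controls 1 to 4 was 20.17, 15.56, 12.88 and 19.05 CPM. In Dnm2 wt/K562E mice 1 to 4 it was 38.18, 40.93, 44.2 and 38.51 CPM. Every mutant lay well above every control, and the groups did not overlap. The means were 16.91 ± 3.33 and 40.46 ± 2.78 CPM (SD, n = 4 each), a 2.40-fold difference. The log2 fold change was 1.26 (SE 0.13, 95% interval 0.98 to 1.54, edgeR adjusted p = 2.33e-05). Leaving out any mouse kept it between 1.15 and 1.35. Of 6 neuronal markers listed, Snap25, Syt1 and Nefl were under the filter with at most 12 counts in a library. Among the 3 tested 0 were higher, and Stmn2, a neuronal tubulin-binding protein, was lower (log2 fold change -1.32, SE 0.18, edgeR adjusted p = 0.000166). The summed neuronal markers were at 12.72 to 22.33 CPM in controls and 7.656 to 9.891 CPM in mutants. Whether neuronal transcripts had a part in the higher Dnm1 was not tested. Macrophage, fibroblast and tendon markers were higher in the same mice, as given above. So were Myh3 and Myog among the genes of myoblasts and regenerating fibres, while Pax7 and Myf5 were lower. The part of these shifts in the higher Dnm1 was not tested. Ciz1, which overlaps the Dnm1 gene on the opposite strand but with 0 bases of shared exon, had a log2 fold change of -0.0027 (SE 0.094, edgeR adjusted p = 0.984).

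Dnm2, the mutated gene, lies at chr9:21424908-21507759 (plus strand). Its levels were 68.85, 68.51, 59.21 and 68.71 CPM in controls 1 to 4. In Dnm2 wt/K562E mice 1 to 4 they were 74.19, 76.07, 73.15 and 70.27 CPM. The mutants were all above the controls, but by a small margin, and control 3 was lower than the rest. The means were 66.32 ± 4.74 and 73.42 ± 2.43 CPM (SD, n = 4 each). The log2 fold change of 0.15 (SE 0.065, 95% interval 0.0027 to 0.29) did not pass the threshold over all genes (edgeR p = 0.0466, adjusted p = 0.0909), although the separation of the genotypes gave p = 0.0286 in a two-sided exact permutation test, the smallest p that 4 against 4 mice allow. Without control 3 the log2 fold change was 0.094 (edgeR adjusted p = 0.246). The total of Dnm2 transcripts was therefore not shown to differ between the genotypes, and the unadjusted interval reached from just above 0 to an increase of 0.29 on the log2 scale. Whether reads came from the mutant or the wild-type allele is not held in gene counts. Tmed1, a gene on the opposite strand, covers 207 bases or 3.88% of the Dnm2 exons, and fell from 27.61 ± 1.83 to 19.31 ± 0.75 CPM (SD, n = 4 each, log2 fold change -0.52, SE 0.071, edgeR adjusted p = 0.000187). Reads in the shared bases could count for both genes, because whether strand was used in counting is not given in the sources used here.

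Dnm3, at chr1:161982453-162478034 (minus strand), was the least abundant member of the family. It had 8.70, 7.84, 5.85 and 8.89 CPM in controls and 6.06, 8.53, 9.18 and 6.95 CPM in Dnm2 wt/K562E mice. The groups overlapped over nearly their whole range. The log2 fold change was -0.021 (SE 0.17, 95% interval -0.39 to 0.35, edgeR adjusted p = 0.93), so that a change of the size seen for Mff, in either direction, could not be told from none.

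The shares of the 3 classical dynamins in their sum did not overlap between the genotypes. As parts of a whole, the shares of Dnm2 and Dnm3 fall when Dnm1 rises, and neither gene was itself called. Per kilobase of merged exon, Dnm1 made up 20.02% ± 2.30 of the 3 dynamins in controls and 35.3% ± 1.47 in Dnm2 wt/K562E mice, while Dnm2 made up 78.0% ± 2.45 and 63.2% ± 1.66 and Dnm3 1.99% ± 0.184 and 1.44% ± 0.225 (SD, n = 4 each). Dnm2 thus remained the main dynamin transcript in every mouse. The shares depend on the length used. With that of the longest transcript, mean CPM per kilobase of Dnm1, Dnm2 and Dnm3 was 3.673, 18.9 and 1.039 in controls. In mutants it was 8.785, 20.92 and 1.021. Within a mouse, the log2 ratio of Dnm1 to Dnm2 was between -2.20 and -1.77 in controls and between -0.96 and -0.73 in mutants. Such a ratio does not depend on the scaling between libraries. It differed by 1.13, without overlap (two-sided exact permutation p = 0.0286, adjusted p = 0.05 over the 7 ratios compared, which is at the threshold of 0.05 and not under it). The log2 ratio of Dnm3 to Dnm2 differed by -0.18 with overlap (exact permutation p = 0.257, adjusted p = 0.257).

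Dnm1l encodes Drp1, the GTPase that constricts mitochondria, and lies at chr16:16312230-16358959 (minus strand). Its levels were 118.5, 111.4, 110.4 and 101.3 CPM in controls and 107.4, 99.64, 102.5 and 109.6 CPM in Dnm2 wt/K562E mice. The groups overlapped. The means of 110.4 ± 7.08 and 104.8 ± 4.54 CPM (SD, n = 4 each) gave a log2 fold change of -0.075 (SE 0.063, 95% interval -0.21 to 0.064, edgeR adjusted p = 0.36). Of its 31-base stretches 9.51% occurred in other genes, mostly Gm13719 and the antisense gene Gm49521. Gm49521 overlaps 243 bases of the Dnm1l exons and was not among the genes counted. A part of the Dnm1l reads may have been assigned to loci elsewhere, such as Gm13719.

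Mff and Fis1 anchor Drp1 at the outer membrane. Mff, at chr1:82724890-82752394 (plus strand), had 116.4, 108.1, 120.4 and 106.4 CPM in controls and 89.94, 98.97, 102.2 and 99.02 CPM in Dnm2 wt/K562E mice. All mutants were lower than all controls, with a narrow gap between them. The mean fell by 13.6%, from 112.8 ± 6.66 to 97.52 ± 5.27 CPM (SD, n = 4 each), with a log2 fold change of -0.21 (SE 0.064, 95% interval -0.35 to -0.068, edgeR adjusted p = 0.0211). This call was lost without control 3 (-0.18, edgeR adjusted p = 0.0633) and without mutant 1 (-0.17, edgeR adjusted p = 0.0605). Fis1, at chr5:136953275-136966234 (plus strand), had 66.49, 73.98, 75.52 and 66.74 CPM in controls and 62.19, 65.17, 65.81 and 69.94 CPM in mutants. The groups overlapped, since mutant 4 lay above controls 1 and 4. Its log2 fold change was -0.10 (SE 0.066, 95% interval -0.25 to 0.042, edgeR adjusted p = 0.229). The ratio of Mff to Fis1 within a mouse differed by -0.11 on the log2 scale (exact permutation p = 0.143, adjusted p = 0.167), so the 2 adaptors were not shown to change unequally.

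The genes of mitochondrial fusion all fell. Mfn1, at chr3:32529465-32579239 (plus strand), had 260.3, 276.4, 264.6 and 229.5 CPM in controls. It had 145.6, 154.0, 159.9 and 162.9 CPM in Dnm2 wt/K562E mice. The highest mutant was far below the lowest control. The mean fell by 39.6%, from 257.7 ± 19.98 to 155.6 ± 7.60 CPM (SD, n = 4 each), with a log2 fold change of -0.73 (SE 0.069, 95% interval -0.88 to -0.58, edgeR adjusted p = 1.56e-05).

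Mfn2, the mitofusin that also tethers mitochondria to the endoplasmic reticulum, lies at chr4:147873599-147904704 (minus strand). Its levels were 549.5, 589.4, 546.8 and 511.1 CPM in controls and 399.4, 434.3, 415.3 and 426.2 CPM in Dnm2 wt/K562E mice. The groups stood apart. The mean fell by 23.7%, from 549.2 ± 32.0 to 418.8 ± 15.1 CPM (SD, n = 4 each), with a log2 fold change of -0.39 (SE 0.061, 95% interval -0.53 to -0.26, edgeR adjusted p = 0.000453).

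Opa1, at chr16:29579334-29654884 (plus strand), fuses inner membranes and shapes cristae. Its control levels were 127.8, 124.7, 126.4 and 125.2 CPM, with very little spread. In Dnm2 wt/K562E mice they were 102.1, 88.65, 92.45 and 101.9 CPM, again without overlap. The mean fell by 23.6%, from 126.0 ± 1.39 to 96.27 ± 6.78 CPM (SD, n = 4 each), with a log2 fold change of -0.39 (SE 0.061, 95% interval -0.52 to -0.25, edgeR adjusted p = 0.000462). The calls of Mfn1, Mfn2 and Opa1 held when any mouse was left out, with log2 fold changes of -0.79 to -0.70, -0.43 to -0.36 and -0.42 to -0.35.

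**Figure D2:**
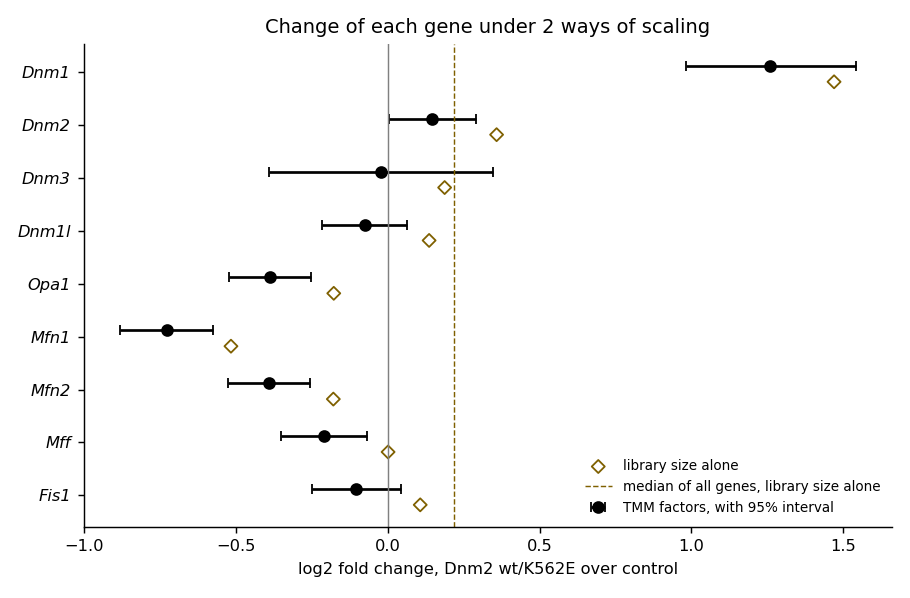
Log2 fold change of each gene in Dnm2 wt/K562E over control soleus (horizontal axis), with TMM factors and their 95% interval (black) and with library size alone (open diamonds). The median of all genes moved to 0.219 with library size alone (dashed line), and Dnm1 stayed above 0 and Opa1, Mfn1 and Mfn2 below 0 under both.

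The scaling matters for the small changes. With library size alone, without TMM factors, the median over all genes rose from 0.0074 to 0.219 (log2), and calls shifted from 3103 higher and 3036 lower to 5608 higher and 1504 lower. Dnm1 was then at 1.47, Mfn1 at -0.52, Mfn2 at -0.18 and Opa1 at -0.18, all still called. Dnm2 was called higher at 0.36 (edgeR adjusted p = 0.00271), and the values of Dnm1l, Mff and Fis1 turned positive (0.14, 0.0013 and 0.11) without passing the test. Library size alone moved these genes by about as much as the median of all genes, so it shifts the zero rather than the order of the genes.

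Ratios within a mouse compared single genes of the machinery free of that choice. The log2 ratio of Mfn2 to Mfn1 was 1.08, 1.09, 1.05 and 1.16 in controls and 1.46, 1.495, 1.38 and 1.39 in Dnm2 wt/K562E mice. The mutants were all higher, Mfn1 having fallen more than Mfn2 in these mice. The difference was 0.34 (exact permutation p = 0.0286, adjusted p = 0.05, not under the threshold). Per kilobase of merged exon, Mfn1 made up 28.5% ± 0.635 of the mitofusins in controls and 24.0% ± 0.711 in mutants (SD, n = 4 each).

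The fusion genes Opa1 and Mfn2 were set against the fission gene Dnm1l in the same way. The log2 ratio of Opa1 to Dnm1l was 0.11, 0.16, 0.19 and 0.31 in controls and -0.073, -0.17, -0.15 and -0.11 in Dnm2 wt/K562E mice. It was above 0 in every control and below 0 in every mutant, a difference of -0.32 (exact permutation p = 0.0286, adjusted p = 0.05). The log2 ratio of Mfn2 to Dnm1l was 2.21 to 2.40 in controls and 1.90 to 2.12 in mutants, which differed by -0.32 without overlap (exact permutation p = 0.0286, adjusted p = 0.05). The log2 ratio of Dnm1l to Dnm2, the mitochondrial against the plasma membrane dynamin, differed by -0.22, but mutant 4 lay above control 4 (exact permutation p = 0.0571, adjusted p = 0.08). Opa1 and Mfn2 were thus lower relative to Dnm1l in every mutant than in any control. The p was the smallest that the number of mice allows, and no adjusted p was under 0.05. Genotypes were apart for 41.2% of single genes, and the share of gene pairs apart was not computed. Dnm1l alone stood for fission here and was itself not called. Of 15 other fission receptors and regulators tested 9 fell, 1 rose and 5 were not called (median log2 fold change -0.41). Mff fell and Fis1 was not called. These ratios therefore do not set fusion against fission as a whole.

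**Figure D3:**
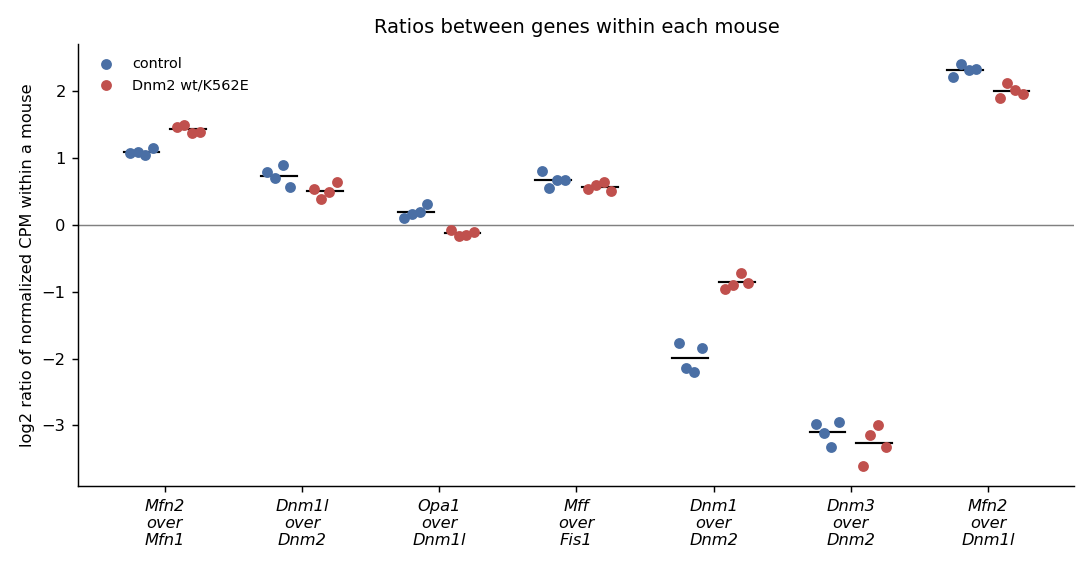
Log2 ratio of normalized CPM between pairs of genes within each mouse (vertical axis), for 4 controls (blue) and 4 Dnm2 wt/K562E mice (red), with group means as black lines. The genotypes are apart for Mfn2 over Mfn1, Opa1 over Dnm1l, Dnm1 over Dnm2 and Mfn2 over Dnm1l, and overlap for the other 3 ratios.

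Compared per length, the transcripts of the 9 genes spanned a wide range. In controls, CPM per kilobase of merged exon was highest for Mfn2 at 105.7, followed by Mfn1 at 42.15, Fis1 at 41.24, Dnm1l at 21.22, Opa1 at 16.0, Dnm2 at 12.44, Mff at 11.56, Dnm1 at 3.22 and Dnm3 at 0.32. The ranges of Mfn1 and Fis1, and of Dnm2 and Mff, overlapped among controls, and the other neighbours were apart. In Dnm2 wt/K562E mice the order became Mfn2 at 80.63, Fis1 at 38.38, Mfn1 at 25.45, Dnm1l at 20.14, Dnm2 at 13.78, Opa1 at 12.22, Mff at 9.99, Dnm1 at 7.71 and Dnm3 at 0.31, with all neighbours apart. Mfn1 thus dropped behind Fis1, and Opa1 behind Dnm2. The order depends on the length used. With that of the longest transcript, control levels were 74.56 for Fis1 and 56.49 for Mfn1, and 28.79 for Mff beside 27.83 for Dnm1l and 18.9 for Dnm2.

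The 9 genes were also set against 10 nuclear genes of mitochondrial content, such as Cs (citrate synthase) and Sdha (a subunit of succinate dehydrogenase), in a comparison added after the data were seen. All 10 reference genes were lower, among them Uqcrc1 at a log2 fold change of -1.16, Sdha at -0.99, Cs at -0.84 and Atp5b at -0.73. At the other end were Timm23 at -0.54, Tomm40 at -0.36 and Tomm20 at -0.25, a span that holds the values of Mfn2 and Opa1. Of the 31-base stretches of Timm23 63.5% occur in other genes, so its level is uncertain. The mean of the 10 reference genes fell by 0.68 on the log2 scale. Mfn1 kept pace with them. Its log2 level relative to the reference was -0.70, -0.72, -0.75 and -0.83 in controls and -0.82, -0.82, -0.79 and -0.76 in Dnm2 wt/K562E mice, which overlapped (difference -0.047, exact permutation p = 0.229). Mfn2 and Opa1 were higher in mutants relative to the reference, each by 0.29 without overlap (exact permutation p = 0.0286), and so were Mff by 0.47, Fis1 by 0.58, Dnm1l by 0.60, Dnm3 by 0.65, Dnm2 by 0.83 and Dnm1 by 1.95. These 8 of 9 stand beside 74.0% of all genes tested that were higher without overlap on this scale (1.82% were lower), as a reference that itself falls raises most genes.

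Against the 8 muscle fibre markers, whose mean fell by 0.57, the 3 fusion genes overlapped between the genotypes, with differences of -0.16 for Mfn1, 0.18 for Mfn2 and 0.18 for Opa1 (exact permutation p = 0.114, 0.0857 and 0.2). The other 6 genes were higher without overlap, Mff by 0.36, Fis1 by 0.47, Dnm1l by 0.49, Dnm3 by 0.54, Dnm2 by 0.72 and Dnm1 by 1.84, where 64.6% of all genes were (2.41% were lower). Leaving Timm23 and Hspd1, 2 genes with many near-identical copies, out of the content reference gave the same separations.

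**Figure D4:**
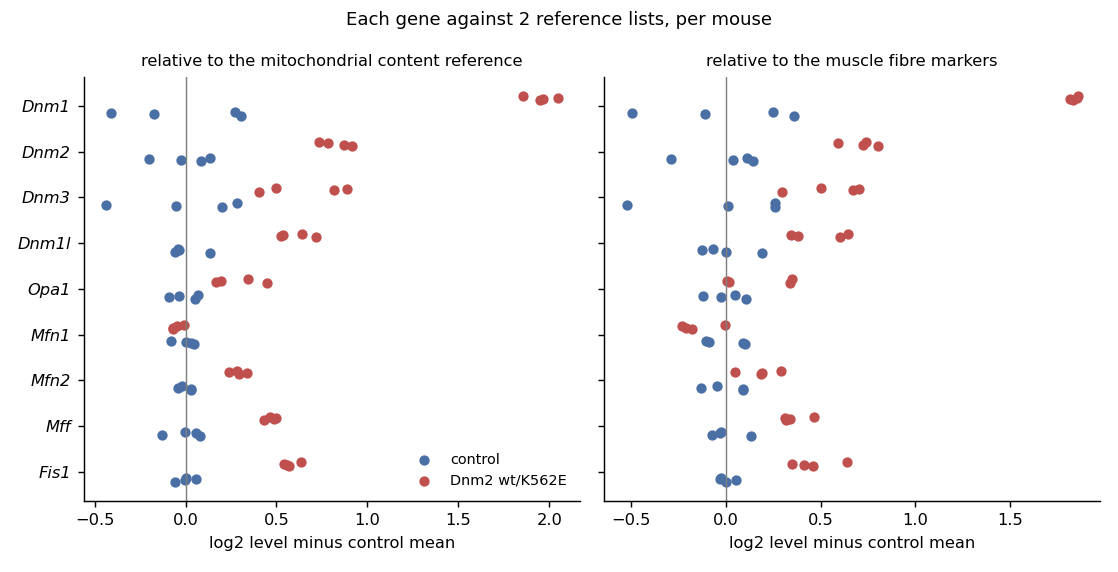
Log2 level of each gene relative to the mean of 10 mitochondrial content genes (left) or 8 muscle fibre markers (right), drawn as the difference from the control mean, with 1 point per mouse (controls blue, Dnm2 wt/K562E red). Mfn1 overlaps between the genotypes in both panels, and Dnm1 is farthest to the right.

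Of 16 other fission receptors and regulators, 15 were tested, and 9 fell, 1 rose and 5 were not called, with a median log2 fold change of -0.41. Over all genes tested 21.7% were lower and 22.2% higher, with a median of 0.0074. Mtfp1, an inner membrane protein required for fission, had 66.11, 68.93, 69.09 and 58.85 CPM in controls and 26.75, 29.94, 31.1 and 32.38 CPM in Dnm2 wt/K562E mice. It was lower in every mutant than in any control, at a log2 fold change of -1.13 (SE 0.079, edgeR adjusted p = 2.36e-06). Mief2, the Drp1 receptor MiD49, fell from 106.2 ± 6.98 to 61.53 ± 10.5 CPM (SD, n = 4 each, log2 fold change -0.79, SE 0.11, edgeR adjusted p = 0.000191). Its relative Mief1 (MiD51) fell by 0.41 on the log2 scale. The gene that rose was Spire1, an actin nucleator, from 10.76 ± 1.49 to 19.72 ± 2.20 CPM (SD, n = 4 each, log2 fold change 0.87, SE 0.12, edgeR adjusted p = 0.000152). Gdap1, an outer membrane protein mutated in Charcot-Marie-Tooth neuropathy, was low at 3.17 ± 0.67 and 1.98 ± 0.60 CPM (SD, n = 4 each), overlapped between the genotypes and passed narrowly (log2 fold change -0.68, SE 0.25, edgeR adjusted p = 0.0485). It lost its call when any of 6 of the mice was left out, with log2 fold changes between -0.84 and -0.51 over all 8 omissions.

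The genes that process Opa1 or hold the inner membrane fell in 10 of 13 cases, with 0 higher and a median log2 fold change of -0.50, where 21.7% of all genes tested were lower. Oma1, the protease that cleaves Opa1 under stress, fell from 22.7 ± 2.51 to 15.41 ± 1.99 CPM (SD, n = 4 each, log2 fold change -0.56, SE 0.11, edgeR adjusted p = 0.00174). Yme1l1, the protease that cleaves it constitutively, was at 78.39 ± 2.38 and 79.49 ± 4.77 CPM (SD, n = 4 each) and was not called (log2 fold change 0.020, SE 0.061, edgeR adjusted p = 0.812). Spg7, the paraplegin subunit of an inner membrane protease, had a log2 fold change of -0.68 (SE 0.065, edgeR adjusted p = 1.64e-05). The prohibitins Phb and Phb2, which scaffold these proteases, had -0.58 and -0.56, and 34.4% of the 31-base stretches of Phb occur in other loci, so its level is uncertain. Immt, the organizer of cristae junctions, fell by 0.51.

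Of 13 partners of the mitofusins 12 were tested, and 6 fell, 0 rose and 6 were not called, with a median log2 fold change of -0.18. Over all genes tested 43.8% were called and 21.7% were lower. Miga2, a mitoguardin of the outer membrane, fell from 34.42 ± 4.58 to 19.09 ± 2.67 CPM (SD, n = 4 each, log2 fold change -0.85, SE 0.12, edgeR adjusted p = 0.000193). Hk2, the hexokinase bound to mitochondria, and Pink1, the kinase that marks damaged mitochondria, had log2 fold changes of -0.72 (SE 0.093) and -0.63 (SE 0.095), both called. Rhot2, a GTPase of mitochondrial transport, had -0.47 but shares 27.9% of its 31-base stretches with other loci.

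**Figure D5:**
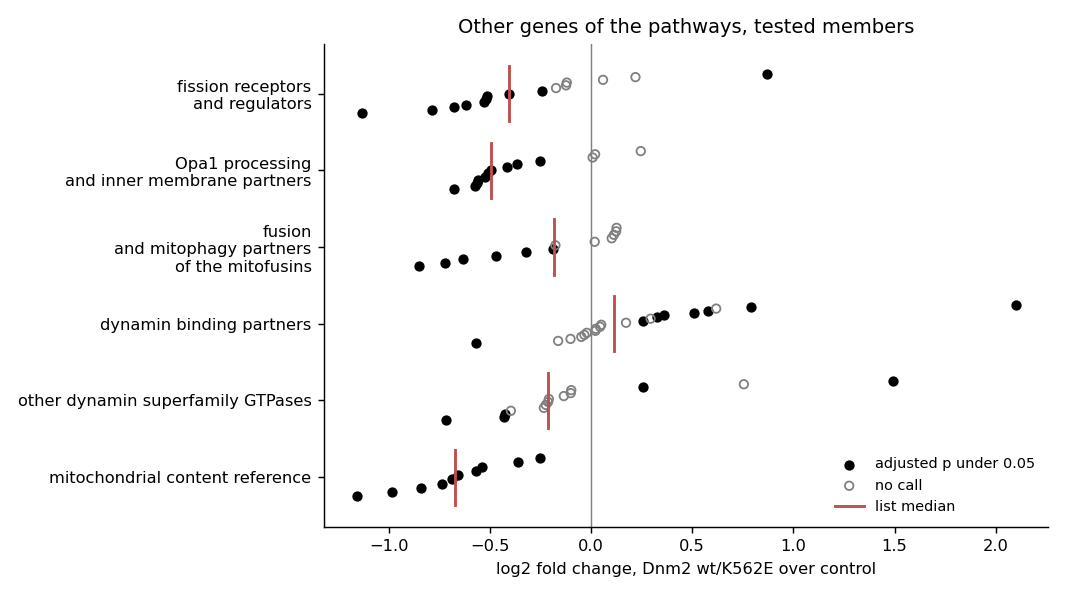
Log2 fold change in Dnm2 wt/K562E over control soleus (horizontal axis) of each tested gene in 6 lists, with filled points at an edgeR adjusted p under 0.05 and red lines at the list medians. The 4 mitochondrial lists have medians between -0.67 and -0.18, and the dynamin binding partners a median of 0.11.

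Of 20 binding partners of the classical dynamins 7 were higher, 1 lower and 12 not called, at a median log2 fold change of 0.11 (all genes 0.0074). Over all genes tested 43.8% were called and 22.2% were higher, so the number of partners called was near the background. Cttn, the actin-binding protein cortactin, rose from 43.08 ± 0.78 to 74.44 ± 3.95 CPM (SD, n = 4 each, log2 fold change 0.79, SE 0.059, edgeR adjusted p = 3.13e-06). The sorting nexin Snx33 rose from 9.12 ± 1.03 to 13.6 ± 1.72 CPM (SD, n = 4 each, log2 fold change 0.58, SE 0.12, edgeR adjusted p = 0.00249). Sh3gl2, the neuronal endophilin A1, was close to the limit of detection in controls, with 55, 3, 14 and 20 counts, and had 108, 113, 119 and 101 counts in Dnm2 wt/K562E mice. It was higher in every mutant, at a log2 fold change of 2.10 (SE 0.54, edgeR adjusted p = 0.00923) that was 3.06 without control 1. The gene that fell was Trip10, the F-BAR protein CIP4, from 128.4 ± 2.43 to 86.43 ± 2.79 CPM (SD, n = 4 each, log2 fold change -0.57, SE 0.052, edgeR adjusted p = 1.14e-05). Bin1, the amphiphysin of the transverse tubules, was at 431.8 ± 16.7 and 438.8 ± 31.5 CPM, and Mtm1, the phosphoinositide phosphatase myotubularin, at 19.51 ± 3.63 and 18.17 ± 0.81 CPM (SD, n = 4 each). These 2 genes, which with DNM2 underlie centronuclear myopathy, were not called (edgeR adjusted p = 0.798 and 0.506).

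Among 14 tested relatives of the dynamin superfamily 2 rose, 3 fell and 9 were not called, with a median log2 fold change of -0.21. This count too was near the 43.8% called over all genes. Ehd4, an ATPase of endosomal membranes, had 67.69, 70.47, 60.24 and 69.98 CPM in controls and 181.7, 181.3, 190.5 and 202.1 CPM in Dnm2 wt/K562E mice. It was higher in every mutant, at a log2 fold change of 1.49 (SE 0.068, edgeR adjusted p = 2.34e-07), above that of Dnm1. Its relatives Ehd2, at the neck of caveolae, and Ehd3 had log2 fold changes of -0.43 (SE 0.078) and -0.43 (SE 0.13), both called. Atl2, an atlastin that fuses the endoplasmic reticulum, fell from 116.1 ± 5.18 to 70.63 ± 3.41 CPM (SD, n = 4 each, log2 fold change -0.72, SE 0.060, edgeR adjusted p = 6.38e-06), whereas Atl3 was the second gene that rose, by a log2 fold change of 0.26 (edgeR adjusted p = 0.0291).

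The promoters of the 9 genes, from 250 bases before to 50 after each start site in RefSeq (GRCm38.p6), were searched on both strands for AAGGTCA, a motif bound by oestrogen-related receptors, and for the palindromic NRF1 motif, both of regulators of mitochondrial genes. AAGGTCA was in none of them, against 4.718% of 32851 promoters, and the NRF1 motif, held by 4.603%, was in those of Opa1 and Dnm3. The site before Opa1 is shown in capitals with 10 bases on each side (chr16:29579265-29579294, plus strand). It begins 59 bases before the start site and reads as a match on both strands.
Opa1: gtggctccccGCGCATGCGCatgtcatccg
In Dnm3 the match began at base 21 after a start site. The promoters of Mfn1, Mfn2 and Mff, which fell with Opa1, held neither motif. Sites with a mismatch or outside these windows were not looked for, and the part of these regulators was not tested.

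Variation between mice of a genotype was described by Pearson's r of log2 CPM after the genotype means were subtracted, over 8 mice that share library and scaling effects. Among the 9 genes it was highest between Mfn1 and Mfn2 at 0.855, then between Dnm1 and Dnm3 at 0.845 and Dnm1 and Dnm2 at 0.771. The lowest value was that of Dnm1 and Fis1 at -0.738. Of 13955 genes, those most like Dnm2 were Nmt2 (0.99), Zc3h12b (0.983) and C730034F03Rik (0.973). Among those most like Dnm1l were Rhot1 (0.982), a GTPase of mitochondrial transport, and Slc35f6 (0.98). Vcam1 (0.991), Ociad1 (0.982) and Larp4 (0.977) were nearest to Opa1, and Egln1 (0.986), Acad12 (0.985) and Kcnj3 (0.975) to Mfn2. Zc3h12b, C730034F03Rik and Kcnj3 were at low levels, with mean log2 CPM of 0.026, -1.23 and -1.69. Control 3 was the lowest control for Dnm1, Dnm2 and Dnm3 (12.88, 59.21 and 5.845 CPM), and its part in their correlations was not tested. Picked as the highest of so many over 8 mice, the values of the nearest genes are a description of these libraries.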

How the data were processed

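RNA of soleus from 4 control and 4 Dnm2 wt/K562E mice was sequenced, and the authors deposited raw read counts per gene and mouse without normalization. Per the submitters' processing notes and the methods, reads were trimmed with Trimmomatic 0.33, aligned to GRCm38.p5 with STAR 2.5.1b and counted with featureCounts. A poly A library is described in the methods and a stranded total RNA kit in the labels. Groups follow the titles and genotype labels, with which the description of 1 mutant library differs in the residue number. Whether strand was used in counting is not given in the sources used here.

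Of 22880 gene identifiers, 22647 matched GENCODE M21, which gave symbols, positions and exon lengths. filterByExpr of edgeR 4.0.16 (R 4.3.3), at a minimum count of 10 and a minimum total of 15, left 14001 genes. Scaling was by TMM and testing by the quasi-likelihood F-test, with Benjamini-Hochberg adjustment over all tested genes and a threshold of 0.05. Standard errors were derived from the F statistic. CPM were computed with TMM-scaled library sizes, with a prior count of 2 on the log2 scale. Single values were compared by two-sided exact permutation tests (scipy 1.17.1), with a smallest p of 0.0286. Each 31-base stretch of a listed gene's transcripts was looked up in all other genes. Depth ranged from 33407430 to 48832814 counts per library.

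The 9 genes and the lists were chosen with earlier results of these data known. Besides the 9 genes, the text names up to 4 genes of each list with the largest absolute log2 fold change among those called, genes overlapping a member, and the 3 genes most correlated with Dnm2, Dnm1l, Opa1 and Mfn2. Mief1, Immt, Yme1l1, Bin1, Mtm1, Atl3, Timm23, Tomm40, Tomm20, Acta1 and Myh7 were added after their values were seen. Mx2 was not analysed here, and some genes that this rule names are not reported here. As alternatives, edgeR's exact test and DESeq2 1.42.0 were run, with other scalings and filters, replicate blocks and leaving out each mouse. The fitting was tested on simulated data.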

Additional observations from a re-analysis of the deposited data

Results flagged for a closer look

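Within groups of 4 mice, the lowest or highest value was compared with its nearest neighbour by Dixon's ratio for the 9 genes and the other named genes. Of 132 groups examined 3 had a sample apart at the 95% level, where chance alone flags about 1 in 20 groups.

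Dnm2 itself was at 59.21 CPM in control 3, while the nearest other control was at 68.51 CPM, a gap of 0.965 of the range. The sorting nexin Snx33 was at 7.592 CPM in the same control, below 9.474 CPM in the nearest. The endothelial receptor Tek was at 73.88 CPM in control 1, below 82.7 CPM in the nearest. Control 3 was also the deepest library, with 48832814 counts, and the part of depth in these values was not tested.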

How the results depend on the processing

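Dnm1, Mfn1, Mfn2 and Opa1 kept direction and call under every scaling, filter, test, block and omission run. Mff did not. It was at -0.1772 with upper-quartile factors (edgeR adjusted p = 0.051), at 0.0013 with library size alone (0.987), and at -0.2097 and -0.2098 with a replicate block by title or description number (0.0531 and 0.0559). Dnm2 passed with upper-quartile factors at 0.1803 (0.0479) and with library size alone at 0.3586 (0.00271). Dnm3 turned to 0.0136 and 0.1875 under those 2 scalings, and Dnm1l and Fis1 to 0.1364 and 0.1071 with library size alone. Library size alone gave 5608 genes higher and 1504 lower, 13 binding partners called in place of 8 and 3 superfamily relatives in place of 5. Requiring a log2 fold change of 0.58 as well left 1806 higher and 1099 lower.

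Omitting each mouse gave log2 fold changes of 0.0941 to 0.1676 for Dnm2, -0.142 to 0.0763 for Dnm3 (above 0 without control 1 at 0.0291, control 4 at 0.0406, mutant 1 at 0.0763 or mutant 4 at 0.0242), -0.1225 to -0.048 for Dnm1l, -0.2453 to -0.1734 for Mff and -0.1407 to -0.073 for Fis1. Ratios then cannot reach a p below 0.0571.

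The mouse numbers did not pair the mice. Deviations of same-numbered mice correlated at -0.213 to 0.00949 by titles and at -0.167 to 0.178 by descriptions, and 0 and 2 of 8 mice were closest to their own number. The title block called 2608 genes higher and 2523 lower, and paired ratios cannot reach a p below 0.125.

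With the longest transcript in place of merged exons, control levels per kilobase were 18.9 for Dnm2, 1.039 for Dnm3, 27.83 for Dnm1l, 20.22 for Opa1, 56.49 for Mfn1, 126.5 for Mfn2, 28.79 for Mff and 74.56 for Fis1.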
